A study of Caenorhabditis elegans with 6 samples.

Results

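The microRNAs (miRNAs) cel-mir-228, cel-mir-790 and cel-mir-791 of Caenorhabditis elegans were compared between male and hermaphrodite gonads. They were taken by name, as 3 of the 253 miRNA genes listed for every library. Gonads had been dissected from adult males and adult hermaphrodites of the wild-type strain N2, with no mutation or drug treatment in either group, and small RNA was sequenced from 3 libraries of male gonads and 3 of hermaphrodite gonads. The series' design asks which miRNAs are enriched in the male gonad. The labels do not say whether the libraries of a sex came from separate cultures of worms, so p-values measure the spread between these samples, which may be technical.

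A miRNA guides an Argonaute protein to messenger RNAs, and its seed, a short run of bases near its 5′ end, largely decides which ones. Members of a seed family can therefore act on overlapping targets even where the genes lie far apart. These 3 miRNAs are grouped with the vertebrate miR-183 and miR-96 family, whose members are known for their roles in sensory cells. In C. elegans, mir-228 is best known from glia, where its promoter is widely used to drive transgenes, and mir-791 from the neurons that sense carbon dioxide. No mature sequence was used here, so the shared seed is background taken from the grouping and was not checked.

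In the Ensembl annotation of the WBcel235 assembly all 3 genes lie between protein-coding genes, on the forward strand. The file names give another assembly (ce10), so positions are given here only as distances. On chromosome IV the hairpin of mir-228 (WBGene00003321) spans 98 bases and that of mir-790 (WBGene00045351) spans 70 bases. They start 4.40 kb apart, in the interval between ari-2 and T12E12.6. The hairpin of mir-791 (WBGene00045352) spans 85 bases on the X chromosome, between F13D11.3 and hbl-1. It is not an isolated miRNA gene, since mir-230 starts 5.46 kb from it on the same strand. The mir-790 hairpin also contains an annotated Piwi-interacting RNA, 21ur-1430, a class of small RNA made in the germline. Its 21 bases occupy bases 7 to 27 of the hairpin on the same strand. Of the 250 miRNA genes matched by name, 3 hold such a piRNA. Reads of that piRNA and of mir-790 cannot be told apart in counts per hairpin, and the share of each was not tested.

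The male libraries held between 245399 and 597166 miRNA counts and the hermaphrodite libraries between 2268159 and 2621478, so depth and sex cannot be told apart. The largest count that an observed 0 allows, taken as 3, was worth 5.02 to 12.2 CPM (counts scaled to a common library total) in male libraries and 1.14 to 1.32 CPM in hermaphrodite libraries. The oocyte and embryo miRNAs mir-35 to mir-42 summed to between 390 and 449 scaled CPM in male libraries and between 202480 and 343591 in hermaphrodite libraries, in the direction of the labels. Scaled CPM here divides counts by a library size adjusted with the trimmed mean of M values (TMM), which corrects for a few very abundant miRNAs. In such bulk samples, more cells of a type and more RNA per cell cannot be told apart.

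The 3 miRNAs differed by orders of magnitude in their counts. Summed over the 6 libraries, cel-mir-228 had 42090 counts, cel-mir-790 had 74 and cel-mir-791 had 35. A small RNA read covers the whole mature molecule, so these counts were not divided by length. Thus mir-228 made up 99.7% of the counts of the 3 miRNAs. It is the only one whose counts give a precise value in a single library.

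Abundance of mir-228, as a share of miRNA counts, was higher in male libraries. It had 7025, 6201 and 4821 raw counts in male replicates 1 to 3, against 9597, 6824 and 7622 in hermaphrodite replicates 1 to 3, from libraries that were several times deeper. As a share of all miRNA counts this was 1.18%, 1.41% and 1.96% in male libraries, against 0.366%, 0.291% and 0.336% in hermaphrodite libraries. The 95% Wilson intervals, which cover counting error only, were 1.15% to 1.20%, 1.37% to 1.44% and 1.91% to 2.02% in male libraries. They were 0.359% to 0.373%, 0.285% to 0.298% and 0.329% to 0.344% in hermaphrodite libraries. No interval of a male library reached one of a hermaphrodite library. By count, mir-228 ranked 14th, 13th and 11th of the 253 miRNAs in male libraries, against 22nd, 23rd and 22nd in hermaphrodite libraries. As a share of counts, the typical miRNA was also higher in male libraries. Over the 124 miRNAs abundant enough to test, the median log2 fold change on library totals was 1.18.

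After TMM scaling the sexes stood closer together. Male libraries had 8245, 8674 and 16046 scaled CPM of mir-228, against 5197, 5201 and 3761 scaled CPM in hermaphrodite libraries. All male values lay above all hermaphrodite values, and male replicate 3 lay far above the other male libraries. The means were 10988 ± 4385 scaled CPM in male gonads and 4720 ± 830 scaled CPM in hermaphrodite gonads (SD, n = 3 each). The authors' normalized values gave the same order, with 6255, 7696 and 15199 in male libraries against 5517, 5078 and 4804 in hermaphrodite libraries. On the log2 scale the SD of mir-228 among male libraries was 0.53, close to the median of the tested miRNAs, and it was 0.27 among hermaphrodite libraries, where that median was 0.38.

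**Figure D1:**
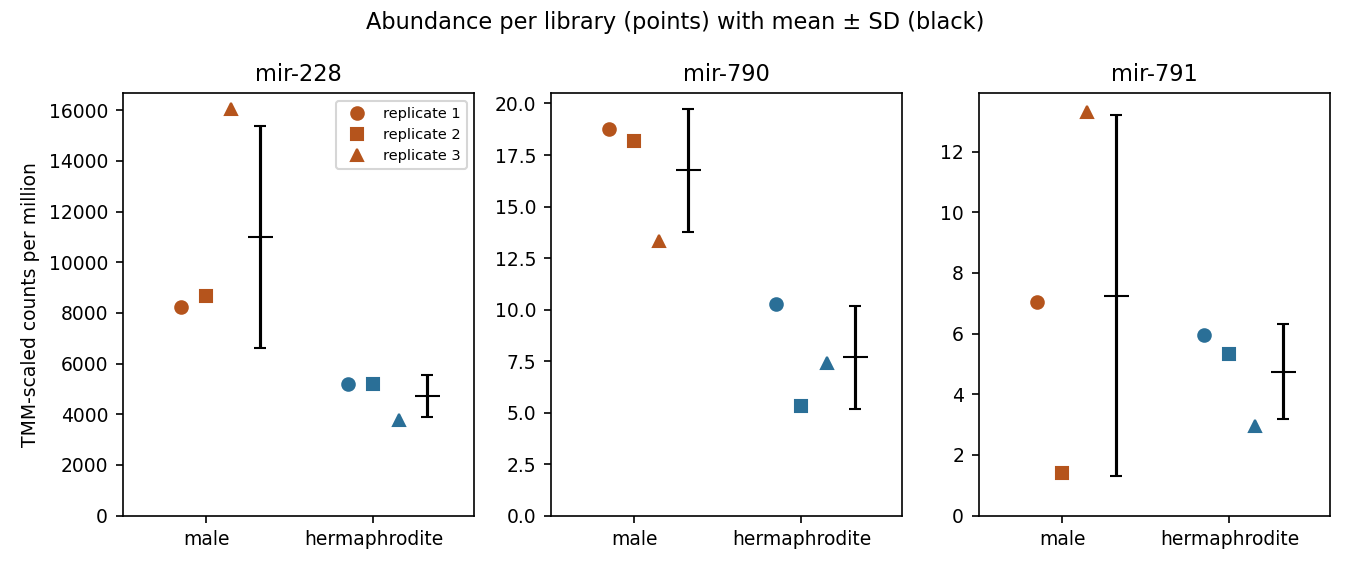
Abundance of the 3 miRNAs in TMM-scaled CPM (vertical axes, each from 0 with its own range), in male and hermaphrodite libraries. Points are single libraries and black bars the mean ± SD of 3 libraries. Male libraries lie above hermaphrodite libraries for mir-228 and mir-790, and the groups overlap for mir-791.

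Fitted with edgeR over all miRNAs, mir-228 rose in male relative to hermaphrodite gonads by 1.22 on the log2 scale (SE 0.39, Benjamini-Hochberg adjusted p 0.00458 from the quasi-likelihood test). This is a 2.33-fold difference, with a 95% interval of 1.37 to 3.95. The median log2 fold change of the 124 miRNAs tested, those abundant enough for the low-count filter, was 0.15, so mir-228 stood 1.07 above it. At an adjusted p under 0.05, 55.6% of the tested miRNAs were called in either direction and 30.6% were called as higher in male gonads. Male libraries lay wholly above hermaphrodite libraries for 38.7% of the tested miRNAs, and the sexes did not overlap in either direction for 67.7%. A call or a separation of this kind was thus common, and 37 tested miRNAs, itself included, had a log2 fold change at least as large as that of mir-228.

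The size of the difference in mir-228 depended on 1 library, and its call on the scaling and on 2 others. Without male replicate 3 the log2 fold change was 0.55 (SE 0.17) and remained called, at an adjusted p of 0.0139 in the same edgeR test. That library had the lowest count total and stood apart from the other male libraries across miRNAs. Its chi-square against male replicates 1 and 2 was 91064 and 79989, where those 2 libraries gave 2683 with each other. Scaling to library totals alone gave 2.19 (SE 0.24, adjusted p 0.000266), while TMM computed without the abundant mir-35 to mir-42 gave 0.74 (SE 0.35, adjusted p 0.0894), both in the same edgeR test. The call was also lost without hermaphrodite replicate 2, at a log2 fold change of 0.78 (adjusted p 0.149, same edgeR test), and without hermaphrodite replicate 3, at 0.79 (adjusted p 0.165). With the low-count filter dropped as well, the edgeR adjusted p was 0.0392 without hermaphrodite replicate 2 and 0.0253 without hermaphrodite replicate 3.

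**Figure D2:**
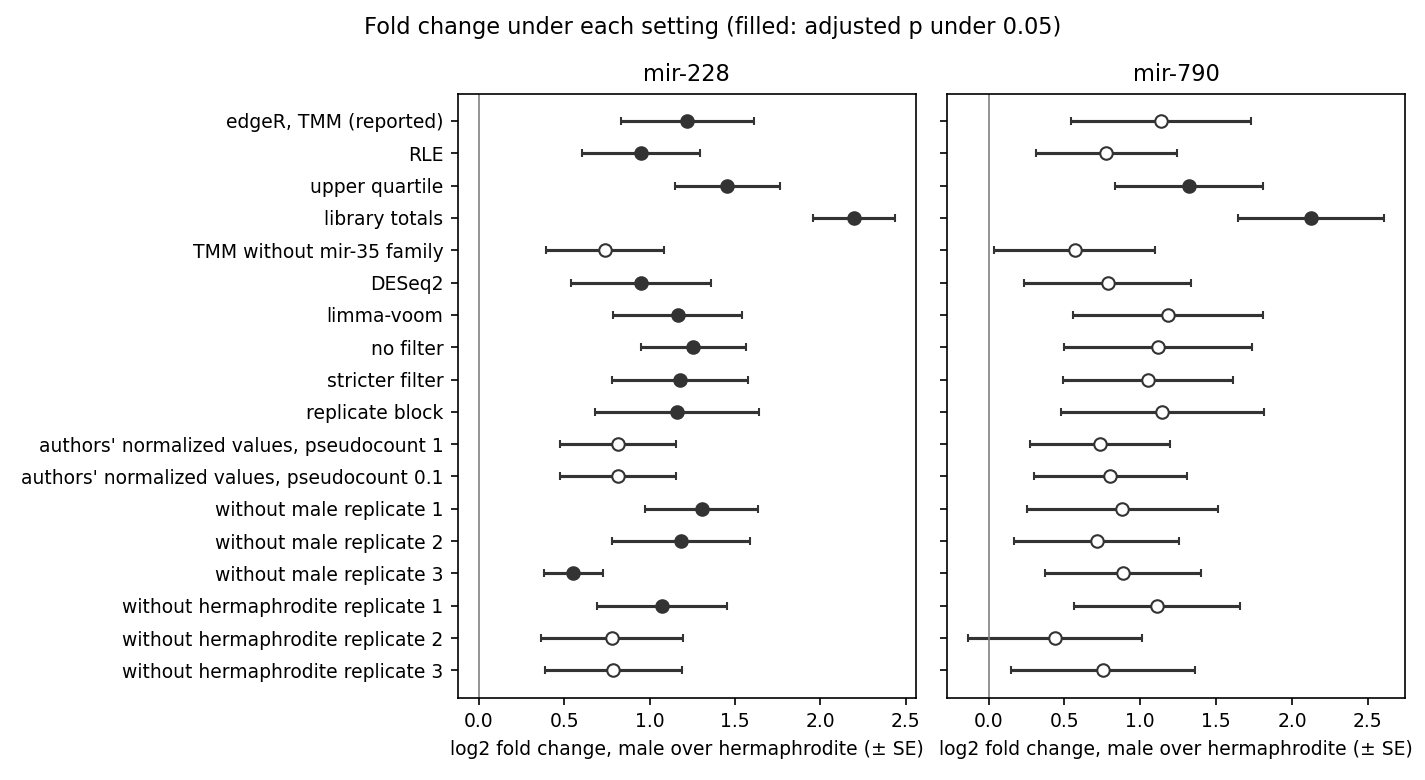
Log2 fold change of mir-228 and mir-790, male over hermaphrodite gonads (horizontal axes, points with ± SE), under the reported fit and each alternative setting. Filled points have an adjusted p under 0.05. All points of both miRNAs lie above 0, from 0.55 to 2.19 for mir-228 and from 0.44 to 2.13 for mir-790.

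The clustered gene mir-790 was rare in both sexes. It had 16, 13 and 4 counts in male libraries, against 19, 7 and 15 counts in hermaphrodite libraries. In CPM this was 26.8, 29.5 and 16.3 in male libraries, against 7.25, 2.99 and 6.61 in hermaphrodite libraries. The exact 95% Poisson interval of male replicate 3, 4.44 to 41.7 CPM, took in 2 of the 3 hermaphrodite values. In scaled CPM the values were 18.8, 18.2 and 13.3 in male libraries, against 10.3, 5.34 and 7.40 in hermaphrodite libraries, with means of 16.8 ± 3.00 in male and 7.68 ± 2.49 in hermaphrodite gonads (SD, n = 3 each). Every male library was thus above every hermaphrodite library on this scale.

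The estimate for mir-790 was close to that for its neighbour mir-228, but the test was not passed. The difference was 1.14 on the log2 scale (SE 0.59, edgeR adjusted p 0.0903). Among the 124 tested miRNAs, 38, mir-790 included, had a log2 fold change at least as large, so an estimate of this size was common. The 95% interval of the fold difference ran from 0.98 to 4.93 and so included no difference. It entered the test because 3 male libraries and 1 hermaphrodite library lay above the filter's 6.98 CPM, so passing the filter rested largely on the male libraries. Under upper-quartile scaling it was called, at a log2 fold change of 1.32 (edgeR adjusted p 0.0436), and under library totals at 2.13 (edgeR adjusted p 0.00637). Its log2 fold change was 0.57 with TMM without mir-35 to mir-42 (edgeR adjusted p 0.376) and 0.44 without hermaphrodite replicate 2 (edgeR adjusted p 0.542).

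The X-linked mir-791 was rarer still, and the sexes overlapped. It had 6, 1 and 4 counts in male libraries, against 11, 7 and 6 counts in hermaphrodite libraries. In CPM this was 10.05, 2.27 and 16.3 in male libraries, against 4.20, 2.99 and 2.65 in hermaphrodite libraries. Male replicate 2 was the lowest of all 6 libraries and male replicate 3 the highest. The means were 9.54 ± 7.03 CPM in male gonads and 3.28 ± 0.814 CPM in hermaphrodite gonads (SD, n = 3 each). The log2 ratio of these means was 1.54, with a two-sided exact permutation p of 0.4, where 3 libraries against 3 cannot go below 0.1. Means of CPM gave larger log2 ratios for the other members, 2.2 for mir-228 and 2.1 for mir-790. In TMM-scaled CPM the log2 ratio of mir-791 was 0.61 (two-sided exact permutation p of 0.6).

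Since only 2 male libraries and no hermaphrodite library reached the filter's 6.98 CPM, mir-791 was not among the 124 tested miRNAs. With no filter its log2 fold change was 0.44 (SE 0.81, edgeR adjusted p 0.695), with a 95% interval of the fold difference from 0.454 to 4.07. The sign depended on how the libraries were averaged. The log2 ratio of the mean authors' normalized values was 0.33, whereas the difference between mean log2 values, taken over the same normalized values, was -0.056 with a pseudocount of 1 and -0.17 with a pseudocount of 0.1. A difference between the sexes was therefore not detectable for mir-791 at this depth, and an increase as large as that of mir-228 lies within its interval. Of the 3 miRNAs, 2 were tested and 1, mir-228, was called, against 55.6% of all tested miRNAs, so this count sets nothing apart about the 3.

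Shares within a library do not depend on the scaling between libraries. As mir-228 made up 99.7% of the counts of the 3 miRNAs, each share is in effect a ratio to mir-228. The share of mir-790 in the counts of the 3 miRNAs was 0.227%, 0.209% and 0.0828% in male libraries, against 0.197%, 0.102% and 0.196% in hermaphrodite libraries. The groups overlapped, and the means were 0.173% ± 0.0786 in male and 0.165% ± 0.0545 in hermaphrodite gonads (SD, n = 3 each; two-sided exact permutation p = 0.8). In read terms, 439, 477 and 1205 counts of mir-228 stood against each count of mir-790 in male libraries, and 505, 975 and 508 in hermaphrodite libraries.

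For mir-791 the share was 0.0851%, 0.0161% and 0.0828% in male libraries, against 0.114%, 0.102% and 0.0785% in hermaphrodite libraries. The means were 0.0614% ± 0.0392 in male gonads and 0.0984% ± 0.0182 in hermaphrodite gonads (SD, n = 3 each), a difference of -0.037 percentage points with a two-sided exact permutation p of 0.3. The ranges overlapped. The lowest share, in male replicate 2, rests on 1 count and had a 95% Wilson interval of 0.00284% to 0.0911%. The counts of mir-790 and mir-791 were equal in male replicate 3, at 4 each, and in hermaphrodite replicate 2, at 7 each. A different sex ratio of mir-791 and mir-228 was thus not detectable, and mir-791 was not tested against mir-790 alone.

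**Figure D3:**
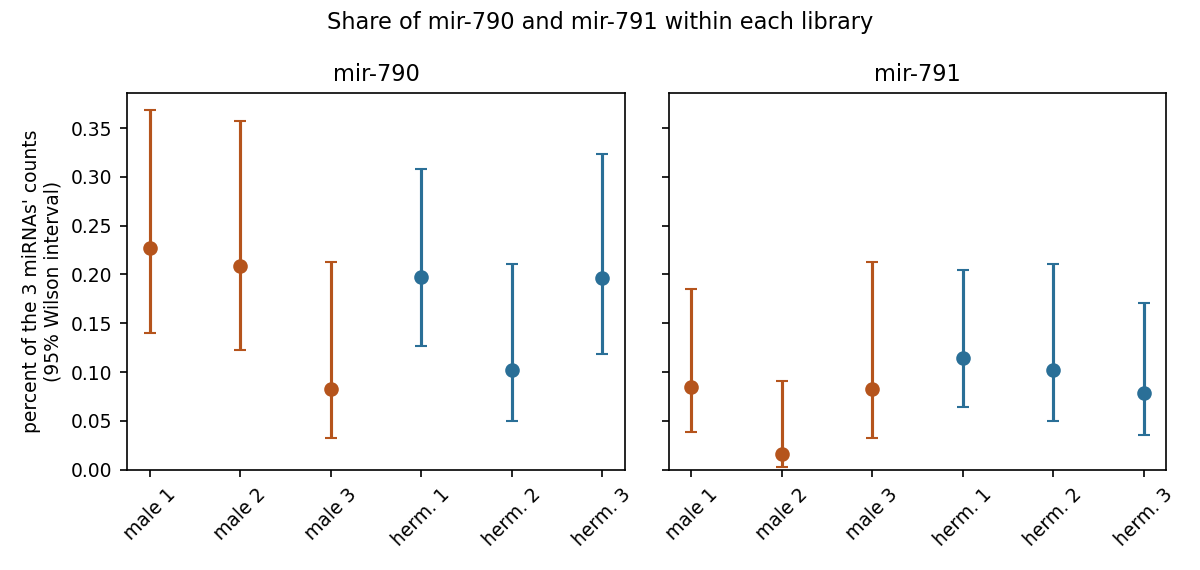
Share of mir-790 and of mir-791 in the counts of the 3 miRNAs (vertical axes, percent) in each library, male libraries left and hermaphrodite (herm.) libraries right. Bars are 95% Wilson intervals, which overlap between the sexes for both miRNAs.

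Because mir-228 and mir-791 are known from somatic cells, miRNAs of other somatic tissues were read beside them. The list held mir-1 of muscle, mir-60 of intestine, and lsy-6 and mir-124 of neurons, and 3 of the 4 were tested. Of these, the neuronal lsy-6 passed the test as higher in males, at a log2 fold change of 1.50 (SE 0.60, edgeR adjusted p 0.0262). It had 8, 20 and 2 counts in male libraries, against 12, 7 and 9 in hermaphrodite libraries, and entered the test through its 3 male libraries alone, since no hermaphrodite library reached the filter's 6.98 CPM. It was not called under RLE scaling or TMM without mir-35 to mir-42 (edgeR adjusted p 0.109 and 0.197). The muscle miRNA mir-1 was called as lower, at -1.16 (SE 0.41, edgeR adjusted p 0.0121), though not under upper-quartile scaling or library totals (edgeR adjusted p 0.12 and 0.886). The intestinal mir-60 was not called, at 0.93 (SE 0.43, edgeR adjusted p 0.0582), except under library totals, at 1.98 (edgeR adjusted p 0.0344). Summed over the list, the level was 2704, 1939 and 559 scaled CPM in male libraries. It was 1718, 3066 and 2296 scaled CPM in hermaphrodite libraries, so the sexes overlapped. Nearly all of each sum came from mir-1 and mir-60, so it says little of neurons. Each count of the list was matched by 3.05, 4.47 and 28.7 counts of mir-228 in male libraries. In hermaphrodite libraries these were 3.02, 1.70 and 1.64 (two-sided exact permutation p = 0.1, the smallest possible). The sexes did not overlap, but male replicate 1 at 3.05 and hermaphrodite replicate 1 at 3.02 nearly met. The list holds mir-1, called above as lower in males, so this ratio is not a separate result. Male replicate 3, where mir-228 was highest, had the lowest sum. In that library mir-124 was at 0, a result that allows up to 12.2 CPM, and elsewhere it had between 1 and 6 counts.

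Set against single somatic miRNAs within a library, mir-228 differed in how far it stood apart. For each count of mir-1 there were 6.64, 8.99 and 48.2 counts of mir-228 in male libraries, against 3.83, 2.06 and 2.09 in hermaphrodite libraries, with no overlap (two-sided exact permutation p = 0.1, the smallest possible). For each count of mir-60 there were 5.68, 9.20 and 73.0 in male libraries, against 14.8, 9.62 and 7.75 in hermaphrodite libraries (two-sided exact permutation p = 0.9). The ratio to mir-60 was below all hermaphrodite libraries in male replicate 1, within their range in male replicate 2 and above them in male replicate 3. Whether somatic tissue left on the dissected gonads contributed to the mir-228 counts was not tested.

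The neighbour of mir-791 on the X chromosome, mir-230, was far more abundant. It had 379, 267 and 399 scaled CPM in male libraries, against 204, 241 and 145 scaled CPM in hermaphrodite libraries. All male values were above all hermaphrodite values, but the log2 fold change of 0.83 (SE 0.44) was not called (edgeR adjusted p 0.0947). The counts of mir-791 were too few to set its pattern against that of mir-230.

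Likeness of pattern was measured as the root mean square difference between profiles of log2 scaled CPM over the 6 libraries, each centred on its own mean. The 5 tested miRNAs nearest to mir-228 were lin-4 at 0.14, mir-52 at 0.17, mir-354 at 0.23, mir-57 at 0.25 and mir-245 at 0.27, where the median over tested miRNAs was 1.15. The developmental timing miRNA lin-4 had 696, 652 and 1142 scaled CPM in male libraries, against 321, 387 and 302 in hermaphrodite libraries. For mir-52, a member of the mir-51 family, these were 3882, 4007 and 9782 in male libraries, against 2382, 2954 and 2190 in hermaphrodite libraries. As the 5 were picked for likeness to mir-228 in these same libraries, a shared peak and direction follow largely from the choice. All 5 were highest in male replicate 3, as was mir-228. Of the 5, lin-4, mir-52 and mir-57 were called as higher in male gonads, against 30.6% of all tested miRNAs. Under TMM without mir-35 to mir-42 only mir-57 of these 3 remained called (edgeR adjusted p 0.00983), and under RLE scaling mir-52 was not called (edgeR adjusted p 0.0634). In the reported fit, mir-354 (edgeR adjusted p 0.0501) and mir-245 (edgeR adjusted p 0.0748) were not called.

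Among the tested miRNAs, mir-790 was the 19th nearest profile to mir-228, at a difference of 0.54, where the median was 1.15. Unlike mir-228 it was lowest among males in replicate 3, a value that rests on 4 counts. The whole profile of mir-790 rests on 4 to 19 counts per library. Whether the patterns of these neighbours differ therefore cannot be told from this rank. The profiles nearest to mir-790 were mir-45 at 0.33, mir-239a at 0.34 and mir-800 at 0.34, of which mir-239a was called as higher in male gonads (edgeR adjusted p 0.0399), though not under RLE scaling (edgeR adjusted p 0.117) or TMM without mir-35 to mir-42 (edgeR adjusted p 0.251). These profiles were likewise picked for likeness to mir-790 in the same libraries, so a shared pattern follows largely from the choice. The male libraries of mir-45, at 354, 291 and 220 scaled CPM, also had replicate 3 as the lowest. Its hermaphrodite libraries had 157, 177 and 160 scaled CPM.

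**Figure D4:**
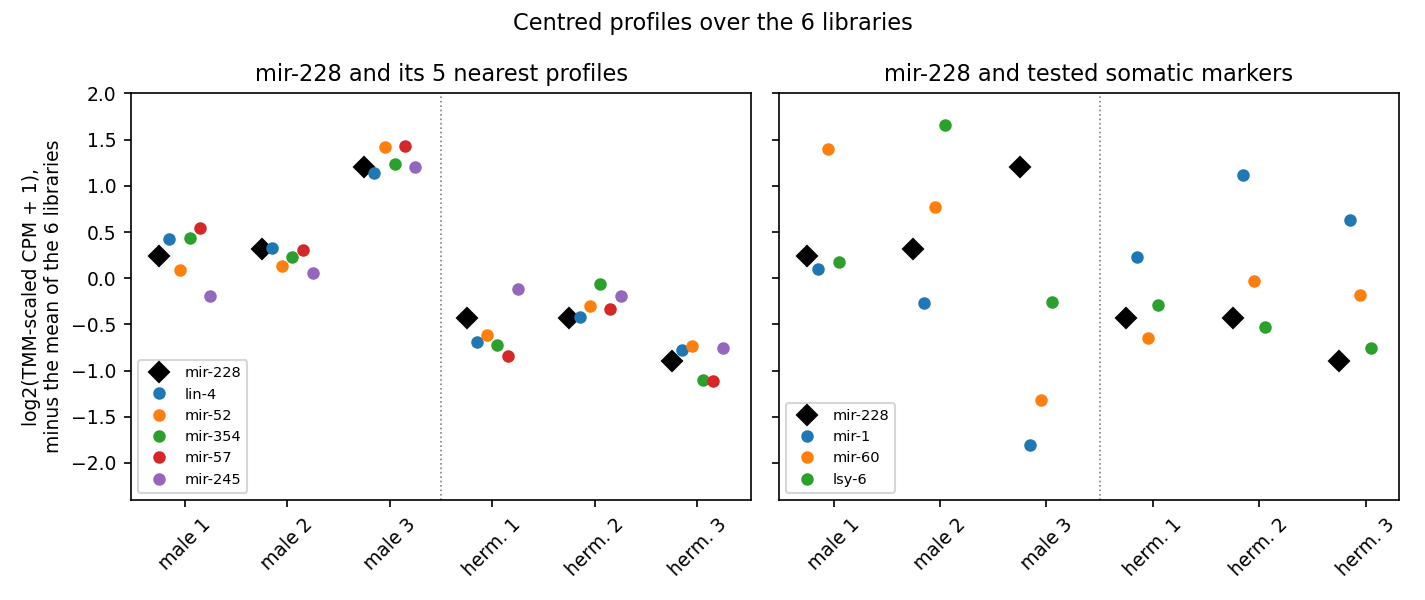
Log2 of TMM-scaled CPM plus 1, minus the mean over the 6 libraries (vertical axes), for mir-228 (black diamonds) with its 5 nearest profiles on the left and with the 3 tested somatic miRNAs on the right. In male replicate 3 mir-228 and its nearest profiles, picked for likeness over these libraries, are at their highest. There mir-1 and mir-60 are at their lowest. There lsy-6, at 2 counts, lies below the other male libraries and barely above hermaphrodite (herm.) replicate 1, at 6.66 against 6.50 scaled CPM. The sexes overlap for lsy-6 in the authors' normalized values.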

How the data were processed

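Per the labels' protocols, total RNA from dissected gonads went into TruSeq Small RNA libraries. The authors deposited raw read counts per miRNA hairpin for each sample, and a table of normalized values, used here as a signal, in which each library's counts are divided by 1 size factor (0.317 to 1.74). The submitters' processing notes name Bowtie2, HTSeq and DESeq2, without versions. The genome build (ce10) and miRBase release (22) stand in the file names. How reads were trimmed, or assigned when they match several miRNAs, is not given in the sources used here.

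Counts were filtered with filterByExpr (minimum count 10), which left 124 of 253 miRNAs, scaled with TMM and compared with edgeR 4.0.16 in R 4.3.3 (robust glmQLFit and glmQLFTest, two-sided, sex as the only term). P-values were adjusted with Benjamini-Hochberg over all 124, at a threshold of 0.05. SE was derived from the F statistic, and 95% intervals are 1.96 SE either side. Exact permutation tests used scipy 1.17.1. Annotation came from Ensembl release 115. The model was tested on simulated data with fewer changed miRNAs than were called here, so that test does not bear on the choice of scaling. Alternatives were DESeq2 1.42.0, limma 3.58.1 (voom and trend), other scalings and filters, the replicate number as a block, and omission of each library.

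The 3 members and all lists were chosen with earlier results of these data known. Named miRNAs are the members, miRNA genes starting within 10 kb on the same strand, the nearest profiles (5 to mir-228 and 3 to mir-790) and 4 somatic markers. A rule on shared seeds could not be applied without sequences. PCR copies cannot be told from molecules, so count intervals cover counting error only. No library pair of 1 sex agreed within sampling noise (chi-square of 2683 or more). The largest values, 91064 and 79989, were those of male replicate 3 with male replicates 1 and 2. Hermaphrodite pairs had 18982 to 20061.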

Additional observations from a re-analysis of the deposited data

How the results depend on the processing

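Of 17 alternatives planned for mir-228, all kept the direction and 12 kept the call. It was lost with TMM without mir-35 to mir-42 (0.74 on the log2 scale), with the authors' normalized values at pseudocounts of 1 and 0.1 (0.81 in both, limma adjusted p 0.0728 and 0.0845), and without hermaphrodite replicate 2 or 3. Leaving out each library gave 0.55 to 1.31 with the filter and 0.70 to 1.47 with none. For mir-790, all 17 kept the direction and 15 stayed uncalled. The call was gained with upper-quartile scaling (1.32) and library totals (2.13), and leaving out each library gave 0.44 to 1.11. These scalings moved the median of all tested miRNAs, by 1.03 for library totals, 0.22 for upper quartile, -0.35 for RLE (relative log expression) and -0.49 for TMM without mir-35 to mir-42.

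The log2 ratio of mir-791 was called in none of its alternatives and ranged from -0.17 to 2.01 over the planned ones. Most of the planned ones were exact permutation tests, whose p cannot go below 0.1, so no call was possible there. As a difference between mean log2 values the mir-791 estimate was -0.056 and -0.17 with the authors' normalized values at pseudocounts of 1 and 0.1. The log2 ratio of means of those values was 0.33. It turned to -0.26 with no filter and without male replicate 3, a setting added after the data were seen. In the exact permutation test, leaving out each library gave 0.91 to 2.01. DESeq2 and limma-voom, run for it without the filter after the data were seen, gave 0.12 and 0.38. The stricter filter left it out.

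The male minus hermaphrodite difference in the share of mir-790 was 0.00769 percentage points, and -0.0238 to 0.0528 with each library left out, turning negative without male replicate 1, male replicate 2 or hermaphrodite replicate 2. For mir-791 these values were -0.0489 to -0.0144. The cause of these changes was not tested, and exact tests of 3 libraries against 3 could pass under no setting.

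The count of called miRNAs was 69, of which 38 were higher in male gonads. It was between 49 (without hermaphrodite replicate 3) and 89 (library totals, 69 of them higher in male gonads) over the 17 alternatives listed for it. Among settings added after the data were seen it reached 94, with no filter and without male replicate 3. RLE gave 32 of 65 and TMM without mir-35 to mir-42 gave 28 of 64.

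The labels do not say whether same-numbered libraries of the sexes were prepared as pairs. Their deviations within each sex had correlations of -0.12, -0.03 and -0.26 across miRNAs, which cannot settle it. With the replicate block, 58 miRNAs were called and mir-228 stayed called at 1.16 (SE 0.48, edgeR adjusted p 0.037). For mir-790 it gave 1.14 and for the mir-791 ratio an exact paired permutation p of 0.5.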
